A study of Homo sapiens with 28 samples.

Results

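NGFR, TIE1, ESAM, ABI3, SPNS2 and IL13RA2 were 6 genes of the 58735 in a count table of MDA-MB-231 cells, and all 6 were among the 17191 genes with enough counts to be tested. They were chosen by their difference between attached cells of a line that overexpresses Tpm2.1 and attached cells that carry an empty vector (EV), so that difference is given below as a description, with no test. MDA-MB-231 is a human triple-negative breast cancer line, and Tpm2.1 is a tropomyosin, a coiled-coil protein that lies along actin filaments, encoded by TPM2. The study asked how such cells respond to loss of attachment, a state that can lead to the form of apoptosis called anoikis.

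The tested cells were 1 line of MDA-MB-231 with Tpm2.1 overexpression, and the cells they were set against were 1 EV line. Both lines were grown in DMEM with fetal bovine serum, penicillin-streptomycin and puromycin, so selection was shared by every group. Attached cells of either line had been on tissue culture plates for 6 hours, and suspended cells were sampled from ultra-low attachment plates after 5 hours and on days 1, 2 and 4. The suspended Tpm2.1 cells were split at each time by Annexin V microbeads into an apoptotic fraction, which binds Annexin V, and a non-apoptotic fraction, whereas the labels describe no such split for EV cells or for attached cells. In suspension the line and the separation step therefore changed together, and their parts in a difference cannot be told apart. There were 14 groups of 2 libraries, labelled as biological replicates. The promoter that drives Tpm2.1, and whether either line is a single clone, are not stated in the labels.

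The 6 genes belong to different systems. NGFR is a receptor for all neurotrophins, a member of the tumour necrosis factor receptor family with a death domain, and is best known from neurons, Schwann cells and neural crest derivatives. TIE1 is a receptor tyrosine kinase of endothelial cells that partners the angiopoietin receptor TEK, and ESAM is an immunoglobulin-family adhesion molecule of endothelial junctions and platelets. ABI3 is an ABL interactor that takes part in the WAVE complex, which drives branching of actin through ARP2/3. SPNS2 exports sphingosine 1-phosphate, a lipid signal read by the S1PR receptors, and IL13RA2 binds interleukin 13 with high affinity and is widely described as a decoy receptor.

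Library totals ran from 13043529 to 27416335 counts. The apoptotic day 4 libraries stood apart in the genes they detected, with counts in 18183 to 18676 genes, against 21275 to 24530 genes in the other libraries. Their totals, 13043529 and 13214201, were the lowest but lay next to the 13271736 counts of apoptotic day 1 replicate 2. Results on apoptotic day 4 cells rest on these 2 libraries. TPM2 checked the labels, at 3242 and 3361 CPM, counts scaled to a common library size, in attached Tpm2.1 cells against 27.2 and 22.7 CPM in attached EV cells. In suspension TPM2 lay between 2461 and 7554 CPM in the apoptotic fraction, between 2543 and 7861 CPM in the non-apoptotic fraction and between 22.7 and 46.1 CPM in EV cells. Markers of the labelled line were present, with VIM at a mean of 1400 CPM in attached Tpm2.1 cells and 1470 CPM in attached EV cells and CD44 at 434 and 446 CPM in the same order, while CDH1 had at most 7 counts and PGR at most 2 in any library. SPARC, a mesenchymal gene on the same list, was nearly absent, with at most 17 counts in any library. In bulk RNA, fewer cells that express a gene and less RNA of it per cell cannot be told apart.

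In attached cells, the contrast the genes were selected on, 20.5% of all tested genes passed a threshold of 0.05 on the adjusted p, the same threshold used below, and nothing is read from the members' share. NGFR stood at 14.4 and 13.95 CPM in attached Tpm2.1 cells against 2.87 and 1.66 CPM in attached EV cells, a log2 fold change of 2.64. TIE1 stood at 72.4 and 67.9 CPM in attached Tpm2.1 cells against 11.9 and 11.98 CPM in attached EV cells, a log2 fold change of 2.55. ABI3 stood at 12.7 and 12.5 CPM in attached Tpm2.1 cells against 2.05 and 2.10 CPM in attached EV cells, a log2 fold change of 2.60. These 3 genes were higher in both Tpm2.1 libraries than in either EV library. SPNS2 was the reverse, at 11.7 and 11.2 CPM in attached Tpm2.1 cells against 50.1 and 40.7 CPM in attached EV cells, a log2 fold change of -1.99. IL13RA2 was also lower, at 14.97 and 14.8 CPM in attached Tpm2.1 cells against 52.9 and 48.1 CPM in attached EV cells, a log2 fold change of -1.76. The odd member was ESAM. It stood at 243 and 236.4 CPM in attached Tpm2.1 cells against 190.4 and 187 CPM in attached EV cells, a log2 fold change of only 0.35. Among the 3277 protein-coding genes that passed in attached cells, NGFR ranked 68, ABI3 73, TIE1 75 and ESAM 994 from the highest log2 fold change, while SPNS2 ranked 16 and IL13RA2 22 from the lowest, so ESAM was not among the large differences.

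Between genes, levels are comparable only per length, as FPKM, fragments scaled by gene length and library depth, which the authors deposited. In attached Tpm2.1 cells the mean level was 82.3 FPKM for ESAM, 10.5 FPKM for TIE1, 9.16 FPKM for IL13RA2, 5.14 FPKM for ABI3, 3.42 FPKM for NGFR and 2.79 FPKM for SPNS2. In attached EV cells it was 65.3 FPKM for ESAM, 31.4 FPKM for IL13RA2, 11.2 FPKM for SPNS2, 1.80 FPKM for TIE1, 0.853 FPKM for ABI3 and 0.551 FPKM for NGFR. ESAM led in both lines. NGFR, ABI3 and TIE1 were the 3 lowest in attached EV cells.

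**Figure D1:**
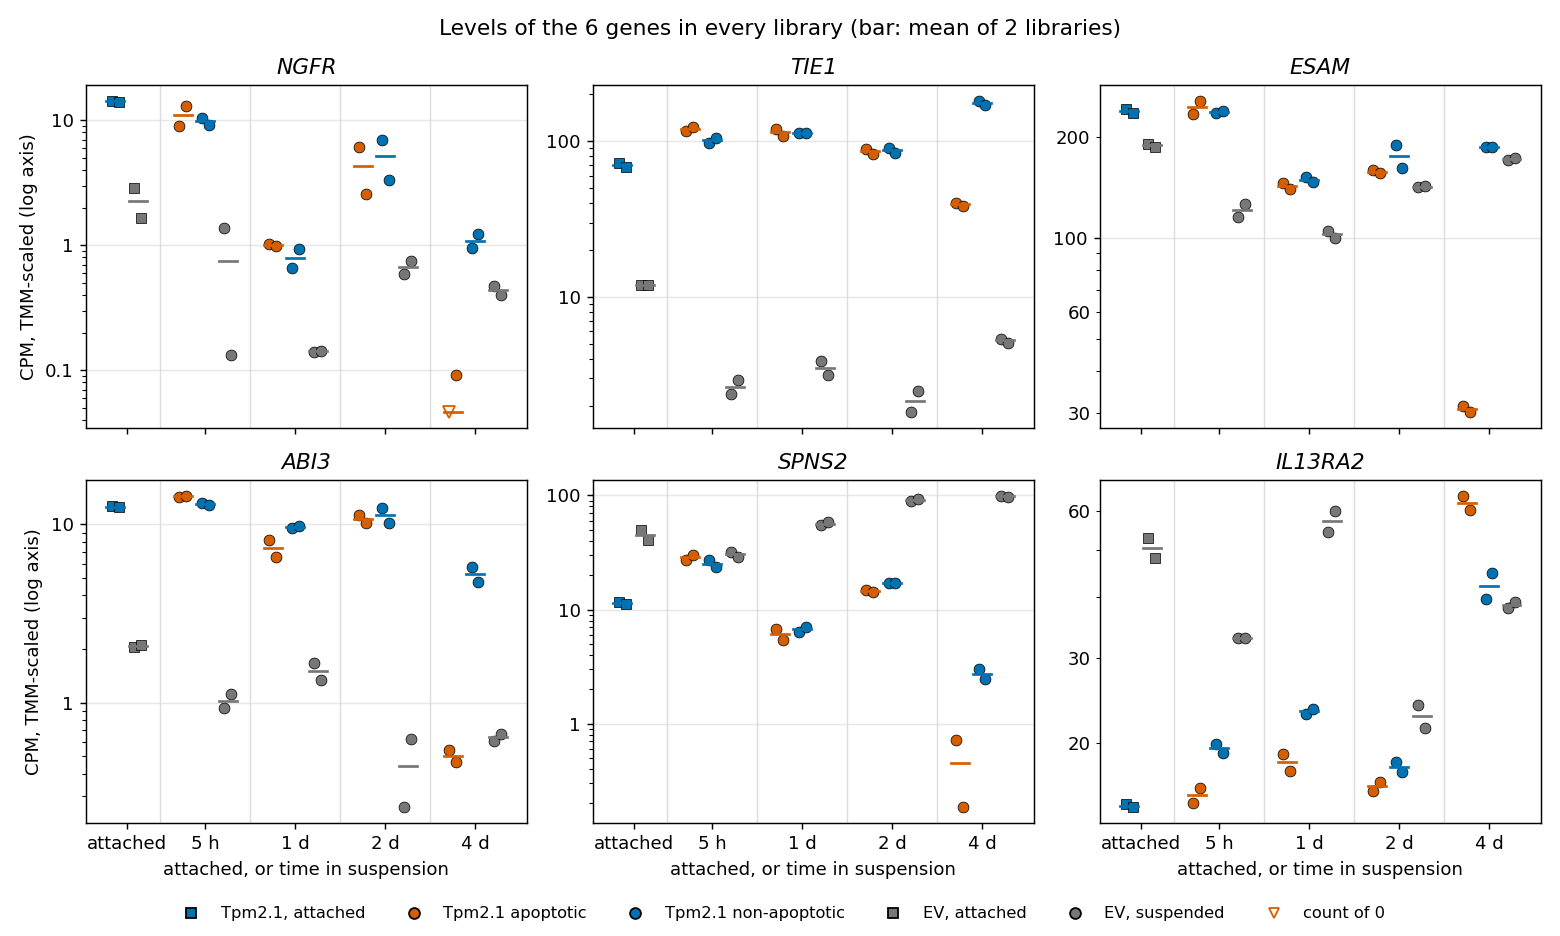
Level of the 6 genes in every library, in CPM on a log axis, by group, with attached and suspended cells of the Tpm2.1 line and of the EV line; each point is 1 library. TIE1 lay between 84.3 and 183 CPM in the 8 non-apoptotic libraries and between 1.82 and 5.40 CPM in the 8 suspended EV libraries, while NGFR points of both lines lay close together on some days.

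The rule that picked the genes used their difference in attached cells, so the line difference was tested in the suspended libraries. Earlier results of these data were known when the genes were chosen, so this test is not an independent check. Over the mean of the 4 times, NGFR, TIE1, ESAM and ABI3 were higher and SPNS2 and IL13RA2 were lower in non-apoptotic Tpm2.1 cells than in EV cells by edgeR's quasi-likelihood test, each in the direction seen in attached cells. All 6 genes passed in this comparison, in which 60.5% of all tested genes passed, so a count of 6 says little about these genes and the sizes say more. TIE1 differed by a log2 fold change of 5.18 ± 0.055 (SE, n = 8 libraries each), ABI3 by 3.51 ± 0.12, NGFR by 2.60 ± 0.31, ESAM by 0.49 ± 0.030, IL13RA2 by -0.57 ± 0.044 and SPNS2 by -2.73 ± 0.060. At single times, all 6 genes passed at 5 hours, where 40.9% of tested genes passed, on day 1, where 40.0% passed, and on day 2, where 44.4% passed. On day 4, with 43.9% of tested genes passing, 3 of the 6 did: TIE1 and ABI3 were higher and SPNS2 was lower in non-apoptotic Tpm2.1 cells than in EV cells. The NGFR call was lost on day 1, the SPNS2 call at 5 hours and the IL13RA2 call on day 2 when certain single libraries were left out, as given for each gene below.

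A stricter description asks whether all 8 non-apoptotic libraries lay on 1 side of all 8 suspended EV libraries. TIE1 and ABI3 were wholly higher, as were 4.14% of tested genes, and SPNS2 was wholly lower, as were 2.91%. For NGFR, ESAM and IL13RA2 the ranges over time overlapped.

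TIE1 lies on chromosome 1 at 43300993 to 43323108 on the plus strand of hg38. The 250 bases before its RefSeq start, chr1:43300732-43300981 on the plus strand of GRCh38.p14, are shown because TIE1 had the largest line difference of the 6 genes in the mean over times in suspension and is the 1 member for which the RefSeq promoter table used here holds a window. No capitals are used, since none of the motifs searched was found.
TIE1: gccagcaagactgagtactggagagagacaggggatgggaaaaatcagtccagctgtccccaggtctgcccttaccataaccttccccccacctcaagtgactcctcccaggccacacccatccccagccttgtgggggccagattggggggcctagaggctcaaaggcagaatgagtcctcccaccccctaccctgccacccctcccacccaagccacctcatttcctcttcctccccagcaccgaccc
C or G made up 61.6% of these bases. The motifs were searched on both strands of the 300-base window that ends 50 bases after the start. The AP-1 motif TGANTCA, the TEAD motif GGAATG, the ETS motif CCGGAAG, the forkhead motif TGTTTAC and the CArG box of SRF were all missing from it. Among the 35116 RefSeq promoter windows of the same length, 7.71% held the AP-1 motif, 14% the TEAD motif, 10.3% the ETS motif, 3.42% the forkhead motif and 1.29% the CArG box.

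TIE1 was higher in Tpm2.1 cells than in EV cells at all 4 times in suspension, in both fractions. At 5 hours it stood at 116 and 123 CPM in the apoptotic fraction, 96.9 and 105 CPM in the non-apoptotic fraction and 2.36 and 2.90 CPM in EV cells. On day 1 it stood at 120.0 and 108 CPM in the apoptotic fraction, 113 and 113 CPM in the non-apoptotic fraction and 3.85 and 3.14 CPM in EV cells. Both fractions were more than an order of magnitude above EV cells. TIE1 on day 2 was at 89.4 and 83.2 CPM in the apoptotic fraction, 90.3 and 84.3 CPM in the non-apoptotic fraction and 1.82 and 2.49 CPM in EV cells. On day 4 the fractions parted, with 39.8 and 38.6 CPM in the apoptotic fraction against 183 and 170.5 CPM in the non-apoptotic fraction, and EV cells were at 5.40 and 5.09 CPM. No TIE1 value of a Tpm2.1 library overlapped an EV value at any time. The log2 fold change of non-apoptotic Tpm2.1 over EV cells was 5.27 at 5 hours, 5.04 on day 1, 5.33 on day 2 and 5.07 on day 4, and edgeR's adjusted p for the mean was 4.31e-42, a 36.2-fold difference. The change of this difference between 5 hours and day 4 was -0.19 ± 0.20 and did not pass (edgeR, adjusted p = 0.518). The highest TIE1 level of the 14 groups was that of non-apoptotic day 4 cells, followed by apoptotic cells at 5 hours and on day 1, which overlapped, and by non-apoptotic cells on day 1, which lay within the apoptotic day 1 range, and the lowest were EV cells at 5 hours and on day 2, which also overlapped.

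NGFR lies on chromosome 17 at 49495293 to 49515017 on the plus strand. Its level was low and swung with time. At 5 hours NGFR stood at 8.99 and 12.9 CPM in the apoptotic fraction, 10.5 and 9.19 CPM in the non-apoptotic fraction and 1.37 and 0.132 CPM in EV cells. On day 1 it was near 1 CPM in both fractions, at 1.02 and 0.979 CPM in apoptotic and 0.657 and 0.936 CPM in non-apoptotic cells, against 0.140 and 0.143 CPM in EV cells. Each Tpm2.1 library at these times was above the EV libraries of the same time. NGFR on day 2 was at 6.10 and 2.56 CPM in the apoptotic fraction, 6.92 and 3.35 CPM in the non-apoptotic fraction and 0.583 and 0.748 CPM in EV cells, with replicates of a fraction further apart than the means of the fractions. On day 4 it was at 0 and 0.0926 CPM in the apoptotic fraction, 0.959 and 1.22 CPM in the non-apoptotic fraction and 0.472 and 0.402 CPM in EV cells. The apoptotic fraction was then the lowest of all 14 groups for NGFR, with 1 count in 2 libraries.

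For NGFR, the log2 fold change of non-apoptotic Tpm2.1 over EV cells was 3.67 ± 0.40 at 5 hours (edgeR, adjusted p = 1.62e-09), 2.46 ± 0.86 on day 1 (adjusted p = 0.0202), 2.96 ± 0.45 on day 2 (adjusted p = 9.44e-07) and 1.30 ± 0.68 on day 4, where it did not pass (adjusted p = 0.126). The day 4 value passed without the count filter (1.28, adjusted p = 0.0488) and in the compared libraries alone (1.33, adjusted p = 0.0313). The EV libraries at 5 hours had 22 and 2 counts, so the 5-hour value was 6.15 without EV replicate 1 and 2.85 without EV replicate 2. The mean over times, 2.60, was 3.22 without EV replicate 1 at 5 hours. On day 2 the value was 2.32 without non-apoptotic replicate 1. The day 1 call was lost without EV replicate 1 (2.45, adjusted p = 0.0696), without EV replicate 2 (2.48, adjusted p = 0.121) and without non-apoptotic replicate 2 (2.16, adjusted p = 0.137). The NGFR line difference changed between 5 hours and day 4 by -2.37 ± 0.91 (edgeR, adjusted p = 0.0431), but it was -4.85 without EV replicate 1 at 5 hours and -1.55 without EV replicate 2 at 5 hours (adjusted p = 0.176), and the call was lost with 6 of its 8 libraries left out singly. The other losses were without EV replicate 1 on day 4 (-2.26, adjusted p = 0.182), EV replicate 2 on day 4 (-2.48, adjusted p = 0.108), non-apoptotic replicate 1 at 5 hours (-2.28, adjusted p = 0.0619), non-apoptotic replicate 1 on day 4 (-2.21, adjusted p = 0.0916) and non-apoptotic replicate 2 on day 4 (-2.56, adjusted p = 0.0524).

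Within non-apoptotic cells NGFR fell, rose and fell again. It was lower on day 1 than at 5 hours by a log2 fold change of -3.58 ± 0.39 (edgeR, adjusted p = 7.28e-10), a step in which 40.8% of tested genes passed. It was higher on day 2 than on day 1, by 2.68 ± 0.42 (adjusted p = 1.33e-05), a step that 12.2% of tested genes passed, and lower on day 4 than on day 2, by -2.26 ± 0.42 (adjusted p = 3.23e-05), where 34.1% passed. Without non-apoptotic replicate 1 on day 2 these later NGFR steps were 2.03 and -1.61. The apoptotic fraction moved in the same directions at the same steps. By edgeR its values were -3.45 (adjusted p = 3.10e-09), 2.11 (adjusted p = 0.000757) and -6.35 (adjusted p = 3.50e-08). In EV cells the step of day 1 against 5 hours was -2.38 (edgeR, adjusted p = 0.0306), where 39.4% of tested genes passed. That step was 0.10 without EV replicate 1 at 5 hours. The later EV steps had the same signs as in the fractions but did not pass. They were 2.18 on day 2 against day 1 (adjusted p = 0.0942) and -0.60 on day 4 against day 2 (adjusted p = 0.558). Day 4 did not differ from 5 hours in EV cells by the test (-0.80, adjusted p = 0.370).

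ABI3 lies on the same chromosome as NGFR, at 49210227 to 49223225 on the plus strand of chromosome 17. At 5 hours ABI3 stood at 14.3 and 14.5 CPM in the apoptotic fraction, 13.2 and 12.9 CPM in the non-apoptotic fraction and 0.931 and 1.12 CPM in EV cells. On day 1 ABI3 was at 8.19 and 6.58 CPM in the apoptotic fraction, 9.59 and 9.76 CPM in the non-apoptotic fraction and 1.68 and 1.33 CPM in EV cells. The levels on day 2 were 11.3 and 10.2 CPM in the apoptotic fraction, 12.3 and 10.2 CPM in the non-apoptotic fraction and 0.259 and 0.623 CPM in EV cells. Through day 2 both fractions were above every EV library for ABI3. On day 4 it was at 0.543 and 0.463 CPM in the apoptotic fraction, below both EV libraries at 0.607 and 0.669 CPM, while the non-apoptotic fraction was at 5.75 and 4.75 CPM. The log2 fold change of non-apoptotic Tpm2.1 over EV cells was 3.66 at 5 hours, 2.70 on day 1, 4.65 on day 2 and 3.03 on day 4, with edgeR's adjusted p at 7.45e-25 for the mean. The EV libraries on day 2 had 4 and 10 counts of ABI3. With single libraries left out the day 2 value ran from 4.17 to 5.41, the latter without EV replicate 2. The change of the difference between 5 hours and day 4 was -0.64 ± 0.44 and did not pass (edgeR, adjusted p = 0.297), although ABI3 itself was lower on day 4 than at 5 hours in non-apoptotic cells, by -1.31 ± 0.16 (adjusted p = 6.82e-09), a comparison in which 54.9% of tested genes passed.

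ESAM, on chromosome 11 at 124752583 to 124762290 on the minus strand, was abundant in both lines. At 5 hours ESAM stood at 235 and 257 CPM in the apoptotic fraction, 235.96 and 238 CPM in the non-apoptotic fraction and 116 and 126 CPM in EV cells. On day 1 the levels were 146 and 140.3 CPM in the apoptotic fraction, 152 and 147 CPM in the non-apoptotic fraction and 105 and 99.9 CPM in EV cells. Up to this time every Tpm2.1 library was above the EV libraries. On day 2 ESAM was at 159 and 156 CPM in the apoptotic fraction, 189 and 162 CPM in the non-apoptotic fraction and 142 and 143 CPM in EV cells. The day 4 levels were 31.4 and 30.2 CPM in the apoptotic fraction, 186 and 186 CPM in the non-apoptotic fraction and 171 and 173 CPM in EV cells, so that the non-apoptotic and EV cells were close and the apoptotic cells far below both. The log2 fold change of non-apoptotic Tpm2.1 over EV cells shrank with time, from 0.97 ± 0.060 at 5 hours over 0.54 ± 0.061 on day 1 and 0.31 ± 0.060 on day 2 to 0.12 ± 0.060 on day 4, where it did not pass (edgeR, adjusted p = 0.115) except in the compared libraries alone (0.15, adjusted p = 0.0178). Its change between 5 hours and day 4 was -0.86 ± 0.084 (edgeR, adjusted p = 1.15e-10), where 32.4% of tested genes passed for a change of the line difference. ESAM moved in both lines: it was lower on day 4 than at 5 hours in non-apoptotic cells, by -0.35 ± 0.058 (adjusted p = 2.55e-06), and higher in EV cells, by 0.51 ± 0.061 (adjusted p = 4.55e-09), where 52.8% of tested genes passed.

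SPNS2, at 4498838 to 4539035 on the plus strand of chromosome 17, was the member whose line difference widened most. At 5 hours SPNS2 stood at 27.2 and 30.2 CPM in the apoptotic fraction, 27.1 and 23.5 CPM in the non-apoptotic fraction and 32.2 and 28.6 CPM in EV cells, with the apoptotic and EV values overlapping. On day 1 it was at 6.80 and 5.39 CPM in the apoptotic fraction, 6.30 and 7.10 CPM in the non-apoptotic fraction and 55.1 and 58.4 CPM in EV cells. The day 2 levels were 14.7 and 14.3 CPM in the apoptotic fraction, 17.2 and 17.2 CPM in the non-apoptotic fraction and 89.3 and 93.8 CPM in EV cells. From day 1 the Tpm2.1 libraries were far below the EV libraries. On day 4 SPNS2 was at 0.724 and 0.185 CPM in the apoptotic fraction, 3.01 and 2.44 CPM in the non-apoptotic fraction and 99.7 and 97.5 CPM in EV cells. The log2 fold change of non-apoptotic Tpm2.1 over EV cells was -0.27 ± 0.10 at 5 hours (edgeR, adjusted p = 0.0327), -3.07 on day 1, -2.42 on day 2 and -5.17 ± 0.14 on day 4 (adjusted p = 1.12e-27). The 5-hour call was lost without EV replicate 1 (-0.18, adjusted p = 0.324) and without non-apoptotic replicate 2 (-0.16, adjusted p = 0.362), and by DESeq2 the adjusted p was 0.0739. The SPNS2 difference changed between 5 hours and day 4 by -4.90 ± 0.18 (edgeR, adjusted p = 3.34e-22).

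From 5 hours to day 4 SPNS2 moved in opposite directions in the lines, although it rose in both at the day 2 step. In EV cells it was higher on day 1 than at 5 hours, by 0.90 ± 0.099 (edgeR, adjusted p = 1.29e-09), and higher on day 2 than on day 1, by 0.69 ± 0.090 (adjusted p = 3.43e-07), a step that 19.2% of tested genes passed. The last step in EV cells, day 4 against day 2, was 0.11 and did not pass (adjusted p = 0.356), where 39.1% of tested genes passed. Across the whole course SPNS2 rose by 1.70 ± 0.097 in EV cells (adjusted p = 9.38e-18). In non-apoptotic Tpm2.1 cells it fell by 1.90 on the log2 scale at the day 1 step (adjusted p = 2.90e-15), rose by 1.35 at the day 2 step (adjusted p = 2.44e-09) and fell by 2.65 at the day 4 step (adjusted p = 9.38e-16), for a total of -3.20 ± 0.16 (adjusted p = 6.80e-20). NGFR also had its day 1 low and day 2 rebound in these cells.

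IL13RA2, at 115003975 to 115019977 on the minus strand of chromosome X, was lower in Tpm2.1 cells early and not late. At 5 hours IL13RA2 stood at 15.05 and 16.2 CPM in the apoptotic fraction, 19.9 and 19.1 CPM in the non-apoptotic fraction and 32.9 and 32.9 CPM in EV cells. On day 1 the levels were 19.0 and 17.6 CPM in the apoptotic fraction, 23.0 and 23.6 CPM in the non-apoptotic fraction and 54.5 and 60.2 CPM in EV cells. Here both fractions were below EV cells. On day 2 IL13RA2 was at 15.98 and 16.7 CPM in the apoptotic fraction, 18.3 and 17.4 CPM in the non-apoptotic fraction and 23.9 and 21.5 CPM in EV cells. The order turned on day 4, with 64.7 and 60.5 CPM in the apoptotic fraction, 39.6 and 44.7 CPM in the non-apoptotic fraction and 38.0 and 39.0 CPM in EV cells. The log2 fold change of non-apoptotic Tpm2.1 over EV cells was -0.75 ± 0.089 at 5 hours, -1.30 ± 0.085 on day 1, -0.35 ± 0.096 on day 2 (edgeR, adjusted p = 0.00324) and 0.13 ± 0.085 on day 4 (adjusted p = 0.226). The day 2 call was lost without EV replicate 1 (-0.26, adjusted p = 0.0859). The difference changed between 5 hours and day 4 by 0.89 ± 0.12 (edgeR, adjusted p = 2.66e-07). In non-apoptotic cells IL13RA2 was higher on day 4 than at 5 hours, by 1.11 (adjusted p = 5.92e-14). In EV cells it rose by 0.81 at the day 1 step (adjusted p = 3.18e-10), fell by 1.34 at the day 2 step (adjusted p = 2.35e-14) and rose by 0.76 at the day 4 step (adjusted p = 1.12e-08).

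**Figure D2:**
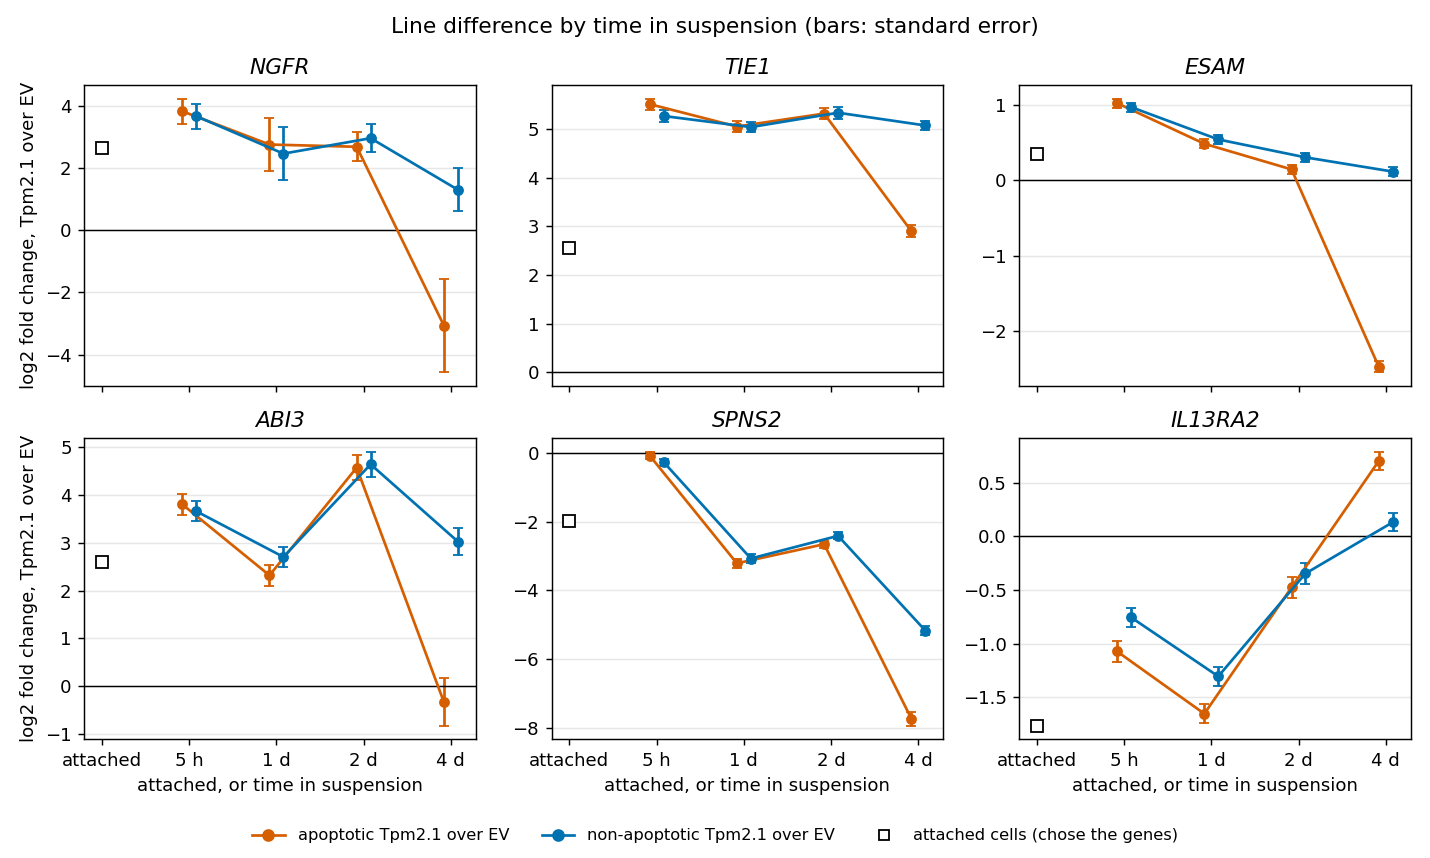
Log2 fold change of Tpm2.1 cells over EV cells for the 6 genes in attached cells and at each time in suspension, with apoptotic and non-apoptotic fractions drawn apart; bars are ± 1 SE of the fitted value. In non-apoptotic cells TIE1 stayed between 5.04 and 5.33, SPNS2 was at -5.17 on day 4, and ESAM and IL13RA2 were at 0.12 and 0.13 on day 4; in apoptotic cells SPNS2 was at -7.73, ESAM at -2.48 and IL13RA2 at 0.70 on day 4.

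The apoptotic fraction was set against the same EV libraries, so its values and those of the non-apoptotic fraction are not independent. At 5 hours 5 of the 6 genes passed, where 28.1% of tested genes passed; SPNS2, at -0.08, did not (edgeR, adjusted p = 0.629). On day 1 all 6 passed, against 33.5% of tested genes, and on day 2 5 passed, against 32.9%, with ESAM at 0.15 not passing (adjusted p = 0.0609). The NGFR call on day 1 was lost without EV replicate 2 (2.77, adjusted p = 0.0826). On day 4, where 76.2% of tested genes passed, 4 genes did. TIE1 was still higher in apoptotic Tpm2.1 cells than in EV cells, by 2.90 ± 0.12, and SPNS2 was lower, by -7.73 ± 0.21. ESAM had turned to lower, at -2.48 ± 0.075, and IL13RA2 to higher, at 0.70 ± 0.084 (adjusted p = 1.41e-09). SPNS2 had few counts in these cells, and its value was -9.06 without apoptotic replicate 1 and -7.13 without apoptotic replicate 2. NGFR at -3.07 (adjusted p = 0.0629) and ABI3 at -0.34 (adjusted p = 0.569) did not pass.

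Within the Tpm2.1 line, the fractions differed little in these genes until day 4. At 5 hours 2 of the 6 genes passed, against 21.4% of all tested genes: TIE1 was higher in the apoptotic than in the non-apoptotic fraction, by 0.24 ± 0.065 (edgeR, adjusted p = 0.00608), and IL13RA2 was lower, by -0.32 ± 0.097 (adjusted p = 0.0170). These calls were weak. The TIE1 call was lost without non-apoptotic replicate 1 (0.18, adjusted p = 0.162) or apoptotic replicate 2 (0.21, adjusted p = 0.10), and the IL13RA2 call without non-apoptotic replicate 1 (-0.29), apoptotic replicate 1 (-0.27) or apoptotic replicate 2 (-0.36). On day 1 only IL13RA2 passed, at -0.35 ± 0.097 (adjusted p = 0.00904), against 19.3% of tested genes, and that call was lost without non-apoptotic replicate 2 (-0.34) or apoptotic replicate 2 (-0.30). On day 2 none of the 6 passed by edgeR or by DESeq2, and 1 had an unadjusted p under 0.05 by edgeR, where 16.6% of tested genes passed.

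On day 4 all 6 genes differed between the fractions, as did 72.1% of all tested genes, and the 2 apoptotic libraries are those that stood apart in the number of genes detected. ESAM was lower in the apoptotic fraction by -2.60 ± 0.074 (edgeR, adjusted p = 9.29e-28), TIE1 by -2.17 ± 0.076 (adjusted p = 3.42e-25), ABI3 by -3.37 ± 0.32 (adjusted p = 6.38e-12) and SPNS2 by -2.56 ± 0.42 (adjusted p = 1.01e-06). The SPNS2 value was -3.88 without apoptotic replicate 1 and -1.95 without apoptotic replicate 2. NGFR had 1 count in the apoptotic libraries and 31 in the non-apoptotic ones, a ratio of 0.0421 after scaling to depth, with a 95% exact interval for counting error of 0.00103 to 0.253. The fitted NGFR value passed (adjusted p = 0.00171), and it was -3.50 without apoptotic replicate 1 (adjusted p = 0.0225) and -7.27 without apoptotic replicate 2. IL13RA2 alone was higher in the apoptotic fraction, by 0.57 ± 0.084 (adjusted p = 1.34e-07). CPM is relative to the other RNA of a library, so whether IL13RA2 RNA rose per cell was not tested. The TMM scaling factors of the apoptotic day 4 libraries, 0.836 and 0.829, were the lowest of all libraries.

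The fraction difference itself changed between 5 hours and day 4 for all 6 genes, a test added after the values had been seen, in which 66.9% of tested genes passed. The change was -4.53 for NGFR, -2.41 for TIE1, -2.65 for ESAM, -3.51 for ABI3, -2.75 for SPNS2 and 0.89 for IL13RA2. Without apoptotic replicate 1 on day 4 the SPNS2 change was -4.08 and the NGFR change -3.67, and without apoptotic replicate 2 on day 4 they were -2.15 and -7.44. Within the apoptotic fraction, day 4 was lower than 5 hours for TIE1 by -1.61, for ESAM by -2.996, for ABI3 by -4.82, for SPNS2 by -5.95 and for NGFR by -7.70, and higher for IL13RA2 by 2.00, where 77.0% of tested genes passed. The SPNS2 value was -7.28 without apoptotic replicate 1 on day 4 and -5.35 without apoptotic replicate 2, and the NGFR value was -6.84 and -10.6 without the same libraries. The part that the lower number of detected genes in these libraries had in the differences was not tested.

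**Figure D3:**
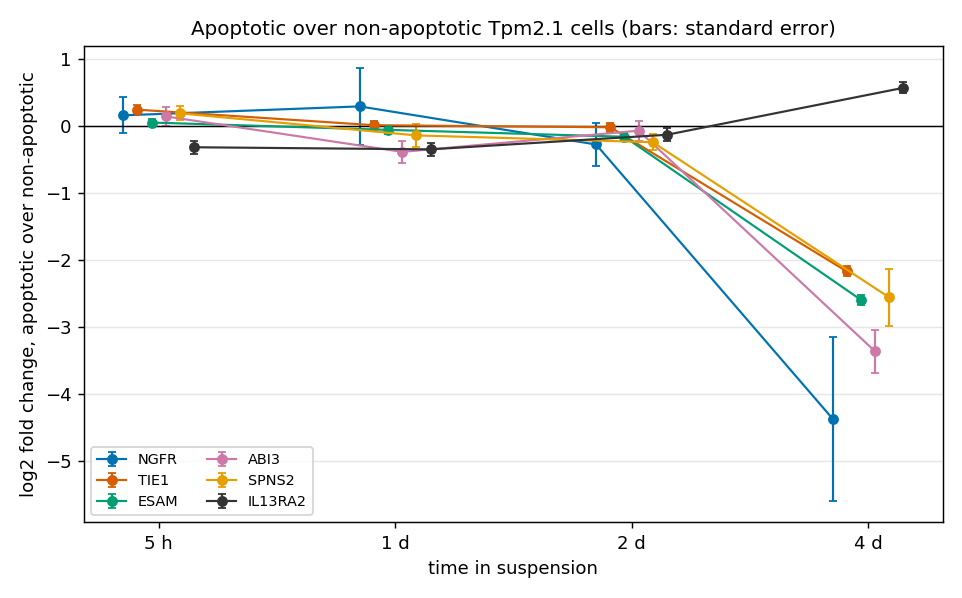
Log2 fold change of the apoptotic over the non-apoptotic fraction of Tpm2.1 cells for the 6 genes at 4 times in suspension, with bars of ± 1 SE. Values lay near 0 until day 2, and on day 4 5 genes lay below -2 while IL13RA2 was at 0.57.

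The partners of each gene were described from lists drawn up for these genes, with the members left out, in the mean over times of non-apoptotic Tpm2.1 against EV cells. Over all tested genes the median log2 fold change was -0.031, 28.6% of genes were higher and 32.0% were lower. Of 17 tested genes of neurotrophin signalling, 7 were higher and 5 lower, with a median of 0.101. Among them RIPK2, a kinase that can bind the NGFR death domain, was higher by 1.05 ± 0.056, MAGED1, a partner of NGFR, by 0.57 ± 0.046, and BDNF, a ligand, was lower by -1.06 ± 0.075. Attached Tpm2.1 and EV means were 14 and 10.1 CPM for RIPK2, 34.1 and 38.6 for MAGED1 and 18.6 and 23.1 for BDNF.

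Of 8 tested genes of the angiopoietin system, 3 were higher and 1 lower, with a median of 0.219. ANGPTL4, a secreted angiopoietin-like protein, was higher by 2.10 ± 0.32, at means of 1.69 CPM in non-apoptotic and 0.341 CPM in EV cells. Its ranges over libraries overlapped, at 0.197 to 3.45 and 0.13 to 0.56 CPM. Attached Tpm2.1 and EV means were 0.576 and 0.293 CPM. TEK, the receptor that TIE1 partners, had at most 5 counts in any library. The endothelial marker list gave 3 higher and 3 lower of 8 tested, of 23 listed, with a median of -0.125. ROBO4, a guidance receptor of endothelium, was higher by 1.03 ± 0.036, and KDR, a receptor for vascular endothelial growth factor, by 1.66 ± 0.069. ICAM2, an adhesion molecule, was higher by 1.77 ± 0.11, while PECAM1, the endothelial junction protein, was lower by -0.54 ± 0.12. The ranges of PECAM1 over libraries overlapped and those of ROBO4, KDR and ICAM2 did not. Attached Tpm2.1 and EV means were 63.7 and 44.5 CPM for ROBO4 and 7.42 and 5.78 CPM for KDR. They were 3.43 and 2.23 CPM for ICAM2 and 0.337 and 0.289 CPM for PECAM1. Several endothelial genes on the list were at or near 0: SOX17 had no count in any library, ERG at most 1, EMCN at most 2, PLVAP at most 4, CDH5 at most 7 and CLDN5 at most 8. Others were present, with up to 906 counts in a library for EGFL7, 78 for SOX18 and 68 for VWF. The summed level of the list without members was 106 to 110 CPM in attached Tpm2.1 cells and 96.9 to 103 CPM in attached EV cells. In suspension it was 108 to 139 CPM in the apoptotic fraction, 114 to 237 CPM in the non-apoptotic fraction and 81.7 to 123 CPM in EV cells.

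Of 8 tested genes on a list of junctional immunoglobulin adhesion molecules around ESAM and the scaffold MAGI1, 3 were higher and 1 lower, with a median of 0.123. The gene that was lower was MAGI1, an intracellular scaffold, at -0.47. CLMP was higher by 1.75 ± 0.046 and CXADR, the coxsackievirus and adenovirus receptor, by 1.68 ± 0.21. CXADR was low, at means of 2.49 CPM in non-apoptotic and 0.891 CPM in EV cells, and the ranges of CLMP and of CXADR overlapped. Attached Tpm2.1 and EV means were 21.8 and 9.57 CPM for CLMP and 0.698 and 0.356 CPM for CXADR. The WAVE and ARP2/3 list of ABI3 had 12 higher and 2 lower of 16 tested, a median of 0.102, so most of its changes were small. Larger changes were those of ARPC3, a subunit of ARP2/3, at 0.68 ± 0.029, and CYFIP2, a WAVE complex subunit, at 1.38 ± 0.096. ABI3BP, named as a binding partner of ABI3, was at 0.76 ± 0.077, with overlapping ranges. Attached Tpm2.1 and EV means were 201 and 135 CPM for ARPC3, 8.88 and 5.65 CPM for CYFIP2 and 6.73 and 6.22 CPM for ABI3BP.

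For the sphingosine 1-phosphate pathway of SPNS2, 9 genes were higher and 6 lower of 20 tested, with a median of 0.0801. S1PR3, a receptor for the lipid, was higher by 1.28 ± 0.031, at means of 169 CPM in non-apoptotic cells and 55.6 CPM in EV cells. SPHK1, a kinase that makes the lipid, was higher by 0.56 ± 0.040, and SPHK2, also on the list, was lower by -0.227 (edgeR, adjusted p = 0.00014). ABCA1, a lipid exporter, was higher by 0.71 ± 0.067, and PLPP2, a lipid phosphatase, was lower by -0.58 ± 0.038. SPHK1 spanned 148 to 218 CPM in non-apoptotic and 81.9 to 222 CPM in suspended EV libraries. S1PR3 spanned 62.7 to 398 and 45.5 to 70 CPM. The ranges of ABCA1 also overlapped and those of PLPP2 did not. Attached Tpm2.1 and EV means were 165 and 164 CPM for SPHK1 and 45.6 and 37.5 CPM for S1PR3. They were 13.5 and 12.5 CPM for ABCA1 and 57.5 and 75.2 CPM for PLPP2. The interleukin 4 and 13 list of IL13RA2 had 5 higher and 6 lower of 14 tested, with a median of -0.0301. CCL26, a chemokine induced by these cytokines, was lower by -0.64 ± 0.29 (edgeR, adjusted p = 0.0498), a call lost with most single libraries left out, as without EV replicate 2 at 5 hours (-0.49, adjusted p = 0.172).

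Markers of other cells in which these genes are known were described in the same comparison. Of 5 tested leukocyte and microglia genes of 14 listed, 2 were higher and 1 lower, with a median of 0.122, and their summed level was 257 to 865 CPM in the apoptotic fraction, 287 to 544 CPM in the non-apoptotic fraction and 203 to 331 CPM in suspended EV cells. That sum was mostly LAPTM5, while PTPRC had at most 3 counts, SPI1 at most 2 and TYROBP none. Of 5 tested Schwann and neural crest genes of 10 listed, none was higher by edgeR and 1 was lower, with a median of -0.11, and the summed level was 141 to 294 CPM in the apoptotic fraction, 164 to 241 CPM in the non-apoptotic fraction and 166 to 231 CPM in suspended EV cells. That sum was mostly PMP22, at means of 107 CPM in non-apoptotic and 111 CPM in suspended EV cells, and MBP, at 74.7 and 73.4 CPM. ERBB3 was at 2.82 CPM and FOXD3 at 2.32 CPM in non-apoptotic cells, while SOX10 had at most 4 counts and S100B none. On the list of line identity, 6 genes were higher and 2 lower of 10 tested, with a median of 0.156. FOXA1, a luminal transcription factor, was higher by 1.91 ± 0.12, ESR1, the oestrogen receptor, by 1.21 ± 0.29 at a mean of 1.15 CPM in non-apoptotic cells and 0.495 CPM in EV cells, EPCAM, an epithelial adhesion molecule, by 0.53 ± 0.10, and ERBB2 was lower by -0.56 ± 0.034. In attached cells ESR1 was at 0.159 CPM in the Tpm2.1 line and 0.289 CPM in the EV line, while FOXA1, EPCAM and ERBB2 kept their direction.

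ABI3 and NGFR are neighbours on chromosome 17, 272067 bases apart with 13 annotated genes between them, of which 4 were tested: PHB at 0.60, ZNF652 at 0.09, EIF4EP2 at 0.22 and PHOSPHO1 at 0.51 in non-apoptotic Tpm2.1 against EV cells. Of the 16 tested genes within 500 kb of ABI3, NGFR included, 14 were higher and none was lower by edgeR, against the 28.6% higher over all tested genes. Of the 15 tested genes within 500 kb of NGFR, ABI3 included, 10 were higher and 1 was lower. Taken as 1 stretch without the members, 20 genes were tested and 14 of them, 70%, were higher, with a median of 0.502 and values of -0.72 (DLX4) to 3.0 (GNGT2). Named by the same rule as the list genes, ATP5MC1 was at 0.90, PHB at 0.60, SPOP at 0.54, SLC35B1 at 0.73 and KAT7 at 0.63, and DLX4 was the gene that was lower. In attached cells, 7 of the 16 tested neighbours of ABI3 and 7 of the 15 of NGFR were higher and none was lower. Each count holds the other member, and 20.5% of all tested genes passed there in either direction. The attached values were 0.205 for ATP5MC1, -0.05 for PHB, 0.08 for SPOP, 0.196 for SLC35B1, 0.36 for KAT7 and 1.90 for GNGT2. GNGT2, at 3.0 ± 0.23, shares 131 exonic bases with ABI3 on the opposite strand, 5.33% of the exons of ABI3, and whether counting used strand is not given, so reads of the pair cannot be told apart there. GNGT2 lay between 2.23 and 5.40 CPM in non-apoptotic cells and between 0.134 and 0.630 CPM in suspended EV cells.

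**Figure D4:**
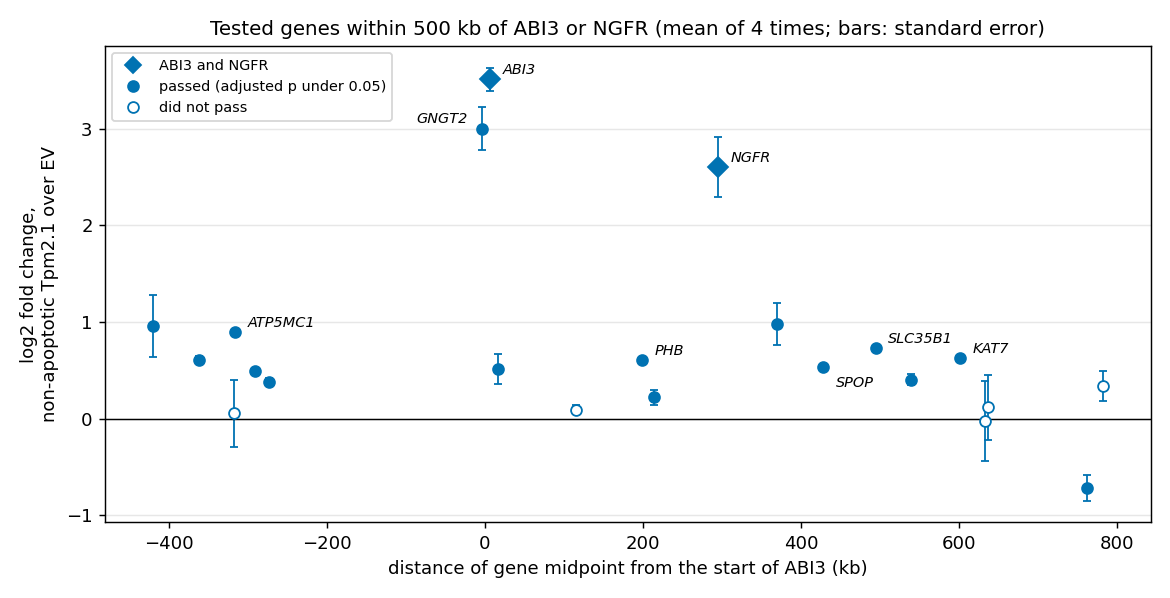
Log2 fold change of non-apoptotic Tpm2.1 over EV cells, mean of 4 times, for each tested gene within 500 kb of ABI3 or NGFR, by distance in kb of the gene's midpoint from the start of ABI3; bars are ± 1 SE. Genes other than the members were higher in 14 of 20 cases, and ABI3, GNGT2 and NGFR stand above the rest.

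Neighbours of the other members were counted in the same way. Within 500 kb of TIE1, 3 genes were higher and 5 lower of 17 tested, with a median of -0.094. Around SPNS2, 10 were higher and 9 lower of 27, with a median of -0.0554. The named ones were CXCL16 at 0.63, INCA1 at -0.52, GP1BA at -0.63 and AC233723.2 at -0.69. Around ESAM 8 were higher and 1 was lower of 14, with a median of 0.213, ROBO4 and SPA17 (0.91) among them. IL13RA2 had 3 tested neighbours. One of them, HTR2C, a serotonin receptor, had 67 to 114 counts in each non-apoptotic library and 0 to 4 counts in each suspended EV library, 709 against 14 in all, and the groups did not overlap. In the apoptotic fraction HTR2C had 37 to 88 counts per library, and attached Tpm2.1 cells had 37 and 28 counts against 1 and 3 in attached EV cells. Its fitted log2 fold change was 5.58 ± 0.24 (edgeR, adjusted p = 8.11e-22), opposite in sign to IL13RA2, and 6.20 without EV replicate 2 at 5 hours and 6.54 without EV replicate 2 on day 2. LRCH2, another neighbour, named after its values were seen, had 104 and 84 counts in the apoptotic fraction on day 4, 50 and 45 in the non-apoptotic fraction on day 4, and 1 count in all 8 suspended EV libraries together. Before day 4 LRCH2 was low in the Tpm2.1 line too. The non-apoptotic fraction had 5 and 2 counts at 5 hours, 0 and 0 on day 1 and 3 and 9 on day 2. The apoptotic fraction had 0 and 5, 3 and 7, and 1 and 12 counts at these times, and attached Tpm2.1 cells had 3 and 2.

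Overlapping annotation could touch 2 further members. NGFR shares 924 exonic bases, 22.3% of its exons, with AC015656.1, which had no count in any library, and 202 bases, 4.87%, with AC006487.1, which had at most 3 counts. SPNS2 shares 139 bases, 3.38%, with MYBBP1A on the opposite strand, which lay between 34.9 and 188 CPM in the apoptotic fraction, between 128 and 179 CPM in the non-apoptotic fraction and between 119 and 201 CPM in suspended EV cells. TIE1, ESAM and IL13RA2 share no exonic base with another gene.

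Across the 14 group means of log2 CPM, which share libraries and depth, the genes most like each member were named as a description. NLRP2 (Pearson's r = 0.966), PLCB2 (0.965) and SLC52A3 (0.955) were closest to TIE1. FBP1 (0.965), ZNF346 (0.929) and GNGT2 (0.923) were closest to ABI3, and LSR (0.968), IER5 (0.968) and NOTCH4 (0.963) to ESAM. NGFR was most like ATF3 (0.924), PLAU (0.911) and RHPN2 (0.898). Among those like SPNS2 were B3GALT5 (0.943) and ATP10A (0.93), and IL13RA2, with the weakest matches of the 6, was most like HYDIN (0.858), LONP2 (0.837) and UBQLN2 (0.836). Among the members, TIE1 and ABI3 were most alike (0.83), followed by NGFR and ABI3 (0.804), and NGFR and IL13RA2 ran most nearly opposite (-0.779). The 14 groups include the attached groups that chose the members, so likeness among members is in part set by that choice. They also include apoptotic day 4 cells, where ESAM was at 30.8 CPM against 102 CPM in the next lowest group. The weight of apoptotic day 4 cells in these correlations was not tested. GNGT2 shares exonic bases with ABI3, as given above.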

How the data were processed

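RNA of 28 libraries, 14 groups of 2, was sequenced after poly-T selection, per the labels' protocols. The authors deposited counts, whole numbers for every gene, and FPKM values of the same genes. Per the submitters' processing notes the build was hg38 and DESeq2 was used; no aligner or counter is given in the sources read. Each deposited FPKM value was the count over gene length and over a scaled library size that was 0.856 to 1.08 of the library's total count (largest relative deviation 5.3e-15). FPKM served only to compare levels between genes. Counts were fitted over all libraries with edgeR 4.0.16 in R 4.3.3 (TMM scaling, filterByExpr, quasi-likelihood F test, 14 residual degrees of freedom), which tested 17191 genes. Means over times weight the times equally. The SE of a log2 fold change is its size over the square root of F, and p-values were adjusted over all tested genes of a comparison by the Benjamini-Hochberg method, with calls at 0.05. They measure only the spread between libraries of a group, which may be technical. No 2 libraries were identical.

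The members, lists and tests were chosen with earlier results of these data known. The named list genes and neighbours are the up to 4 with the smallest p in the mean of non-apoptotic Tpm2.1 against EV cells that passed, with an absolute log2 fold change above 0.5 and at least 1 CPM in a group; likeness names up to 3 protein-coding genes per member. A few genes these rules select are not reported here. The alternatives were DESeq2 1.42.0, other scalings, no count filter, the compared libraries alone, a replicate block, the mean without day 4 and leaving out single libraries. The scripts were checked on simulated counts. Promoter windows and motifs came from RefSeq tables with Python 3.11.15. The interval of the NGFR ratio covers counting error only.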

Additional observations from a re-analysis of the deposited data

Results flagged for a closer look

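For 4 genes the difference between non-apoptotic Tpm2.1 cells and EV cells itself changed between 5 hours and day 4 in suspension, tested as an interaction with edgeR, a comparison that 32.4% of all tested genes passed. On the log2 scale the change was -4.90 for SPNS2, -2.37 for NGFR, -0.86 for ESAM and 0.89 for IL13RA2. For SPNS2 the change joined a fall in non-apoptotic cells with a rise in EV cells. The NGFR call was lost with 6 of its 8 libraries left out singly.

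For all 6 genes the difference between the apoptotic and the non-apoptotic fraction changed over the same interval, by -4.53 for NGFR, -3.51 for ABI3, -2.75 for SPNS2, -2.65 for ESAM, -2.41 for TIE1 and 0.89 for IL13RA2. The apoptotic day 4 libraries held counts in 18183 to 18676 genes, against 21275 to 24530 in the other libraries, and 66.9% of all tested genes passed this comparison. The part of that lower number of genes in it was not tested.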

How the results depend on the processing

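The labels number the replicates in each group. Deviations of samples of the same number had correlations of -0.00607 to 0.053 over 13 pairs, none above 0.1. The numbers were therefore not taken as pairs. The fractions were split from Tpm2.1 cells, so those of the same number may share a culture. On day 2, NGFR, TIE1, ESAM and ABI3 were higher in replicate 1 than in replicate 2 in both fractions, and SPNS2 and IL13RA2 were not. Pairing of the fractions within a time was not tested separately. Neither the low correlations nor the replicate block, a single term shared by all libraries, can decide it. With the replicate block, 174 of 174 results of the 6 genes kept their direction and side of the threshold, and 10380 genes passed in the mean of non-apoptotic Tpm2.1 against EV cells, against 10409 without it. Of the same results 167 were kept by DESeq2, 173 under each other scaling and 165 without the count filter, and 159 of 167 in the compared libraries alone. With single libraries left out, 894 of 960 were kept. Low counts limit NGFR throughout, and limit SPNS2 and ABI3 in apoptotic day 4 cells. They also limit ABI3 in suspended EV cells, with 4 to 28 counts per library.

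The mean of the apoptotic against the non-apoptotic fraction rested on day 4. Over all genes, 6612 passed without day 4 and 9973 with it, and the value without day 4 was 0.059 for NGFR, 0.079 for TIE1, -0.055 for ESAM, -0.10 for ABI3, -0.064 for SPNS2 and -0.27 for IL13RA2, against -1.05, -0.48, -0.69, -0.92, -0.69 and -0.06 in the same order with day 4. Likewise the ESAM mean of apoptotic Tpm2.1 against EV cells was 0.55 without day 4 and -0.20 with it, an alternative chosen after seeing the data. The NGFR fraction mean ran from -1.78 to -0.84 with single libraries left out, and the NGFR change of the line difference from -4.85 to -1.55.

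Other values that changed sign had not passed with all libraries, with the exception of NGFR on day 1 against 5 hours in EV cells. TIE1 between the fractions on day 1 was -0.026 without the count filter, and on day 2 it was 0.0023 in the compared libraries alone. With single libraries left out, the fraction difference ran from -0.12 to 0.39 at 5 hours and from -1.03 to 0.37 on day 2 for NGFR, from -0.073 to 0.082 on day 1 and from -0.072 to 0.032 on day 2 for TIE1, from -0.0062 to 0.11 at 5 hours for ESAM, from -0.20 to 0.083 on day 2 for ABI3 and from -0.33 to 0.0080 on day 1 for SPNS2. The value of day 1 against 5 hours ran from -3.20 to 0.10 for NGFR in EV cells and from -0.15 to 0.0046 for TIE1 in the apoptotic fraction. Day 4 against 5 hours ran from -1.62 to 1.68 for NGFR in EV cells, day 4 against day 2 from -0.023 to 0.21 for ESAM in the non-apoptotic fraction, and apoptotic Tpm2.1 against EV cells at 5 hours from -0.16 to 0.0058 for SPNS2.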
